A study of Mus musculus with 22 samples.

Results

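The genes described here are 39 markers of macrophages and microglia, the resident phagocytes of the brain and its borders, measured by RNA sequencing in adult mouse choroid plexus (ChP). They were picked by gene symbol from what is known of these cells, but with earlier results of these data known. Shares called among them, set beside those of all genes, are therefore a description and not an independent test. They are 39 of the 33984 genes that could be named in the files. By role they comprise 8 genes shared by macrophages and other leukocytes, 9 genes of border-associated macrophages, 3 genes of homeostatic microglia, 8 genes of the TREM2-TYROBP receptor pathway and the activated state, 4 Fc receptor genes, and 7 genes of innate sensing, lysosome and killing. RNA came from 14 pools of mice, 2 pools (A and B) in each of 7 groups. In the conditional model, *Otx2lox/lox* mice on the S129 background, 3 months old, received an injection of vehicle or of Cre-Tat, a cell-permeable Cre recombinase, into the lateral ventricles, and the LV ChP and 4V ChP were dissected 15 days later. A pool labelled Cre-Tat held tissue of 5 mice and a pool labelled vehicle that of 4 mice, and all of these mice carried the floxed alleles, the vehicle mice included. In the constitutive model, pools of 4V ChP from B6D2 mice of 3 months were labelled wildtype, *Otx2* (+/-), which the study names *Otx2+/GFP*, and *Otx2* (+/AA), for which the labels give no further description. The models differ in strain and sequencing run as well as in the allele, so these cannot be told apart, and no promoter restricts the injected Cre-Tat protein to a cell type.

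The ChP is a sheet of epithelium around a vascular stroma, and its immune compartment is made mostly of macrophages. Border-associated macrophages lie in the stroma and carry the mannose receptor *Mrc1* and the scavenger receptor *Cd163*, and cells on the apical face of the epithelium can resemble microglia, which are marked by *P2ry12*, *Tmem119* and *Sall1*. All of these cells need the receptor of colony-stimulating factor, *Csf1r*. Many of their surface receptors, the Fc receptors and TREM2 among them, signal through the small adaptors encoded by *Fcer1g* and *Tyrobp*, while *Ctss*, *Lyz2*, *Cybb* and *Mpeg1* encode a lysosomal protease, lysozyme, the catalytic subunit of the phagocyte NADPH oxidase and a pore-forming protein used against engulfed microbes.

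Pool totals were 22750019 to 50088408 counts. The vehicle 4V pools had the 2 lowest totals, 29551331 and 22750019, against 35382197 and 39070251 for Cre-Tat in 4V. Raw counts given below for vehicle 4V pools are therefore lower than they would be at equal depth, while CPM allow for depth. In the conditional model, 14 of 16 files are filed under a sample whose label carries another library number than the name of the file does. Files were joined through the library number that the sample labels also carry, since 2 files of the same number differed by no more than sampling noise (chi-square per degree of freedom 1.00 to 1.04) and the 2 files filed under the same pool differed far beyond it (22.8 to 40.8). The direction of several marker genes depends on this choice. The targeted gene *Otx2*, counted over its whole transcript, was higher and not lower in the pools labelled Cre-Tat (1236 and 1025 CPM, a count relative to its library total with TMM factors over all pools, in LV, 1202 and 1222 in 4V, against 386 to 470 in vehicle) and *Otx2* (+/-) (1027 and 886 against 361 and 303 in wildtype). The deleted exon was not counted apart, so this count does not check the knockdown, and all pools are called by their labels. The study itself reports fewer *Otx2* reads over exon 2 than in controls for Cre-Tat in LV and 4V and for *Otx2+/GFP* in 4V. It also describes testing *Otx2* in each ChP of the conditional model by qPCR before sequencing. *Ttr* and the other epithelial markers summed to 86185 to 228242 CPM in every pool, so that the macrophage genes were measured within a tissue that is mostly epithelium. The 39 genes summed to 179 to 409 CPM.

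Among the genes, *Ptprc*, *Ms4a7* and *Trem2* are represented by a transcript annotated as retaining an intron. For *Ms4a7* and *Trem2* it is the one with the most counts, of 5 and 4 transcripts. For *Ptprc* it is the only transcript that could be named, so no other was counted here and sums over transcripts leave its count unchanged. Whether reads were counted by strand is not given, and reads of an overlapping gene can be included for *Folr2* (74.6% of the transcript overlaps the antisense gene *Gm10602*), *Csf1r* (18.6%, *Hmgxb3*), *Spp1* (5.39%, *Gm42793*) and *Stab1* (1.40%, *Nt5dc2*). *Lyz2* and *Fcgr2b* or *Fcgr3* have close relatives with similar sequence, so reads could have been shared between copies.

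CPM divided by transcript length in kilobases allow levels to be ranked between genes. In vehicle 4V ChP, *Ctss* was the highest of the 39 at 19.2 CPM per kilobase, followed by *Lyz2* at 10.9, the receptor tyrosine kinase gene *Axl* at 8.16 and osteopontin, *Spp1*, at 5.58. The same 4 genes led in vehicle LV ChP, in another order, with *Ctss* at 27.8 and *Spp1* at 18.6 CPM per kilobase. *Axl* and *Spp1* are also expressed by cells other than macrophages. *Mrc1* was above *P2ry12* per kilobase in 14 of 14 pools, by 2.25 to 6.85 times, and above *Lyve1* and *Sall1* in every pool, while it was above *Tmem119* in 11 of 14. At the other end, *Cst7*, *Lyve1*, *Siglec1*, *Sall1* and *Itgal* were at most 0.40 CPM per kilobase in every group mean. The label of border-associated macrophages therefore rests here mostly on *Mrc1*, with *Stab1*, rather than on the scarce *Lyve1*, and that of microglia on *Tmem119* and *P2ry12*. *Cd163* was at 0.59 to 0.77 CPM per kilobase in the conditional groups and also scarce, at 0.28 to 0.46, in the constitutive groups. *Folr2*, the folate receptor gene of the border-associated list, was at 4.59 CPM per kilobase in vehicle 4V and 2.78 in vehicle LV, above *Stab1* and *Cd163*, but its reads cannot be told apart from those of the antisense gene. In bulk tissue, fewer cells of a type and less RNA of a gene in each cell cannot be told apart.

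**Figure D1:**
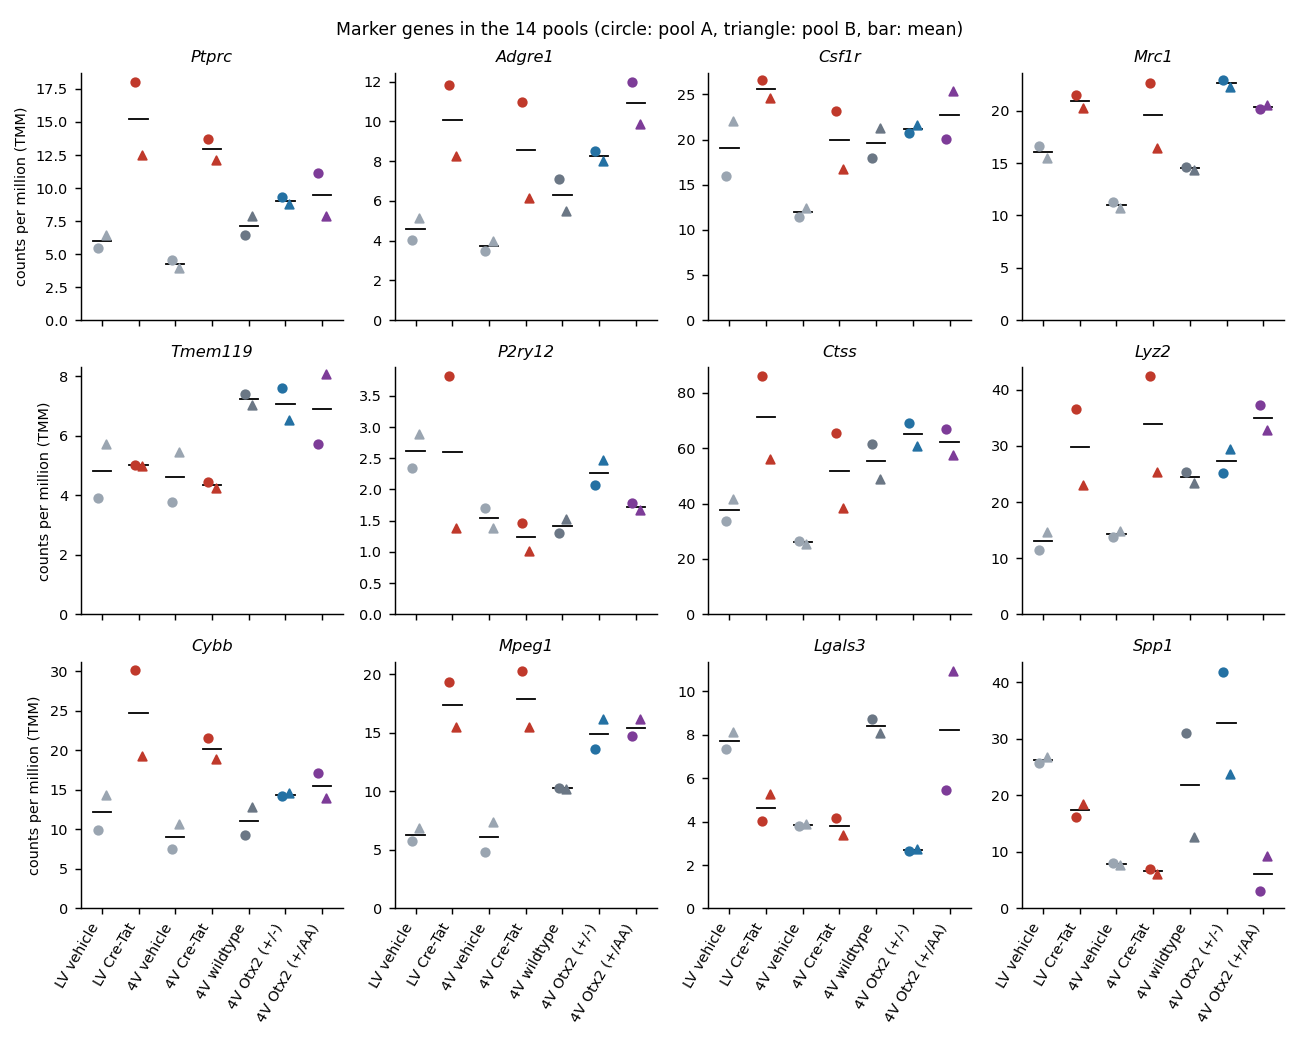
Level of 12 marker genes in each of the 14 pools, in CPM with TMM factors (vertical axes from 0), by group on the horizontal axis. Circles are pool A, triangles pool B and bars the mean of both; *Ptprc*, *Ctss*, *Lyz2*, *Cybb* and *Mpeg1* lie higher in both pools labelled Cre-Tat than in both vehicle pools of the same ventricle, while those groups overlap for *Tmem119* and *P2ry12*.

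In LV ChP, 7 of the 38 marker genes that could be tested were higher in the pools labelled Cre-Tat than in vehicle and none was lower (18.4% of those tested, against 2.21% of all 15002 genes called higher and 3.24% in either direction, edgeR's quasi-likelihood test with a Benjamini-Hochberg adjusted p under 0.05). They were the leukocyte phosphatase CD45 (*Ptprc*), the macrophage receptor F4/80 (*Adgre1*), the inhibitory lectin *Clec12a*, and the protease, lysozyme, oxidase and pore-forming genes *Ctss*, *Lyz2*, *Cybb* and *Mpeg1*. The median log2 fold change was 0.73 over the marker genes tested and 0.00 over all genes. At an unadjusted p under 0.05, 23 were higher and 2 lower, beside 14.2% of all genes in either direction. *Cst7*, a cystatin of activated microglia, did not pass the filter on low counts, and *Itgal* passed it through the Cre-Tat pools alone.

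*Ptprc* was at 5.49 and 6.42 CPM in the vehicle LV pools and at 18.0 and 12.5 in the Cre-Tat pools, a log2 fold change of 1.36 ± 0.22 (SE; edgeR adjusted p = 0.0036). *Adgre1* was at 4.01 and 5.12 CPM against 11.8 and 8.26 (1.14 ± 0.25, edgeR adjusted p = 0.02). In each gene both Cre-Tat pools lay above both vehicle pools, and pool A was the higher Cre-Tat pool. Of the other 6 genes shared by macrophages and leukocytes, none passed the test, with log2 fold changes of 0.43 to 1.04. Among them *Laptm5*, a lysosomal membrane protein of leukocytes, was at 2.77 and 4.58 CPM in vehicle and 6.75 and 5.55 with Cre-Tat. *Csf1r* was at 16.0 and 22.1 CPM in vehicle and 26.6 and 24.6 with Cre-Tat (0.43 ± 0.19). *Aif1*, which encodes the calcium-binding protein IBA1, was at 1.91 and 2.39 against 3.41 and 3.72 (0.73 ± 0.31). The fractalkine receptor gene *Cx3cr1* was at 6.31 and 5.77 against 10.9 and 8.95 CPM (0.72 ± 0.21, edgeR adjusted p = 0.095). In these 4 genes the groups did not overlap either.

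Of the 9 genes of border-associated macrophages, *Clec12a* passed the test in LV ChP, at 0.621 and 0.846 CPM in vehicle and 3.09 and 1.88 with Cre-Tat (1.76 ± 0.45, edgeR adjusted p = 0.047), and this call was lost in 5 of the 9 other settings that kept every pool and the same joining of files. *Mrc1* was at 16.6 and 15.5 CPM against 21.5 and 20.3 (0.38 ± 0.17), higher in both Cre-Tat pools and not past the threshold. *Cd163* was at 3.58 and 3.13 against 2.33 and 2.94 CPM (-0.35 ± 0.30), and *Lyve1* at 0.478 and 0.298 against 0.161 and 1.33. Sialoadhesin, *Siglec1*, was at 0.955 and 0.796 against 1.12 and 2.61 CPM (1.08) without passing. The remaining 4 ranged from -0.16 for the chemokine *Pf4* to 1.40 for *Ms4a7*. The microglial genes gave values near 0 or with wide errors: the purinergic receptor *P2ry12* was at 2.34 and 2.88 CPM against 3.81 and 1.38 (0.01 ± 0.41), the membrane protein gene *Tmem119* at 3.92 and 5.72 against 5.02 and 5.0 (0.06 ± 0.26), and the transcription factor gene *Sall1* at 0.669 and 1.04 against 0.763 and 1.65 (0.49 ± 0.54). In all 3 the groups overlapped.

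The 4 genes of the lysosome and killing that passed the test were all higher in LV ChP with Cre-Tat. *Mpeg1* was at 5.73 and 6.86 CPM in vehicle and 19.4 and 15.5 with Cre-Tat (1.47 ± 0.20, edgeR adjusted p = 0.001). *Lyz2* was at 11.5 and 14.7 against 36.5 and 23.0 CPM (1.19 ± 0.22, edgeR adjusted p = 0.0092). *Cybb* was at 9.89 and 14.4 against 30.1 and 19.3 (1.03 ± 0.23, edgeR adjusted p = 0.026), and *Ctss*, the most abundant, at 33.7 and 41.5 against 86.1 and 56.0 (0.92 ± 0.20, edgeR adjusted p = 0.023). In each of these genes both Cre-Tat pools lay above both vehicle pools, and pool A was the higher of the Cre-Tat pair. The co-stimulatory ligand *Cd86* was at 1.67 and 2.29 against 4.30 and 3.72 CPM (1.02 ± 0.31, edgeR adjusted p = 0.11). None of the 4 Fc receptor genes passed, with log2 fold changes of 0.49 to 1.05 and *Fcer1g* at 1.19 and 1.19 against 2.37 and 2.02 CPM, nor did any of the 7 tested genes of the TREM2-TYROBP and activated state. Of those 7, *Spp1* was at 25.7 and 26.7 CPM in vehicle and at 16.2 and 18.5 with Cre-Tat (-0.59 ± 0.17, edgeR adjusted p = 0.078), and galectin-3, *Lgals3*, at 7.36 and 8.11 against 4.02 and 5.28 (-0.73 ± 0.24, edgeR adjusted p = 0.13). The C-type lectin *Clec7a* lay the other way (1.82 and 1.49 against 3.09 and 3.17 CPM, 0.92 ± 0.34).

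The LV result depended on single pools. Without pool A labelled Cre-Tat, or without vehicle pool A, 3 of the 7 genes stayed past the threshold, *Ptprc*, *Lyz2* and *Mpeg1*, and the other 4 fell short. With the files as attached to the samples, 3 of the 7 kept their call, and the log2 fold changes of *Clec12a*, *Lyz2* and *Mpeg1* turned negative (-0.26, -0.27 and -0.0635).

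Promoter sequences are given for the 5 genes with the lowest p in 4V ChP, all of which were called in both ventricles, because they are the genes on which the Cre-Tat comparisons turn. They are RefSeq windows on GRCm38.p6, from 250 bases before to 50 after the start site, written 5′ to 3′ on the gene's strand, with the letters GGAAGT in capitals, which read ACTTCC where they lie on the other strand. These letters are the core of sites bound by PU.1, the ETS-family factor on which macrophages depend. *Ptprc* lies at chr1:138062861-138175708, its window at chr1:138175256-138175555 on the minus strand. *Mpeg1* lies at chr19:12460779-12465283, its window at chr19:12460520-12460819 on the plus strand. The window of *Cybb* is chrX:9469275-9469574 on the minus strand, that of *Lyz2* chr10:117282223-117282522 on the minus strand and that of *Ctss* chr3:95526536-95526835 on the plus strand.
Ptprc: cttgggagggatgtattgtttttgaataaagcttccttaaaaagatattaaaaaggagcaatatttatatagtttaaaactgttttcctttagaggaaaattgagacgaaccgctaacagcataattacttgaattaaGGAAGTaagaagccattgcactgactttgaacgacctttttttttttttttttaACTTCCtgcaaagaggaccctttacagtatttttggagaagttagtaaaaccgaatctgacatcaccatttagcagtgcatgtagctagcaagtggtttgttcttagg
Mpeg1: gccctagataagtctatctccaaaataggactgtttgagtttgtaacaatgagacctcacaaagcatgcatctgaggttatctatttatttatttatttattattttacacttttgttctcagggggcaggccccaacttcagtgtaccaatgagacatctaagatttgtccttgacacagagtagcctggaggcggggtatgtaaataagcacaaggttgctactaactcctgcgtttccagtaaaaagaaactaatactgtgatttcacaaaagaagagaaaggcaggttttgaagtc
Cybb: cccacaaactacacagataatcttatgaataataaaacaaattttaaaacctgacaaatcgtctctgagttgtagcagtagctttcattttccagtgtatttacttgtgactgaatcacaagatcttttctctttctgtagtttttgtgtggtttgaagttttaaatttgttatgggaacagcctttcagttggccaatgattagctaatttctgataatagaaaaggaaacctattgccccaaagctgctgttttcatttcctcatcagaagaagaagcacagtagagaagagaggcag
Lyz2: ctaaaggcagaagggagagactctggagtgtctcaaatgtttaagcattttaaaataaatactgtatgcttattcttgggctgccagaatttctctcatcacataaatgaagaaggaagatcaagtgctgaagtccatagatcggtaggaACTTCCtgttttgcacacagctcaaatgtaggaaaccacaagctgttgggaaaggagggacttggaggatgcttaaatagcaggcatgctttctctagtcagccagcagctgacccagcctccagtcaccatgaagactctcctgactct
Ctss: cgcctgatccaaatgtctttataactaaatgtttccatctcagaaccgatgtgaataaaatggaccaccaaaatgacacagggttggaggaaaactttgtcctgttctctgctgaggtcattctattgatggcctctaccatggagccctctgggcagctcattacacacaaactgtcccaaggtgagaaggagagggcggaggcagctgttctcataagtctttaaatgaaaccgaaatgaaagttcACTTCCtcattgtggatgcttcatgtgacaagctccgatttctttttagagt

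GGAAGT occurred 2 times in the window shown for *Ptprc*, once each in those of *Lyz2* and *Ctss*, and not in those of *Mpeg1* and *Cybb*. Over the 30 marker genes present in the RefSeq table, 15 held it (50.0%), against 26.5% of all 27025 genes. The longer run GAGGAAGT was in 3 of the 30 and in 3.69% of all genes. GGAAGT is contained in GAGGAAGT, so these counts overlap. A match of letters in a window is a description and not a binding site.

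In 4V ChP, 15 of the 36 marker genes tested were higher in the pools labelled Cre-Tat and none was lower (41.7%, against 5.70% of all 14550 genes called higher, 4.98% lower and 10.7% in either direction). All 7 genes called in LV ChP were among these 15, but LV and 4V tissue probably came from the same mice, so this is not an independent replication. The median log2 fold change was 0.94 over the marker genes tested and 0.01 over all genes, and 22 were higher and none lower at an unadjusted p under 0.05, beside 22.2% of all genes in either direction. The counts by role were 5 of 8 for genes shared with other leukocytes, 3 of 7 for border-associated macrophages, 0 of 3 for homeostatic microglia, 1 of 7 for the TREM2-TYROBP and activated state, 1 of 4 for Fc receptors and 5 of 7 for innate sensing, lysosome and killing. *Lyve1*, *Pf4* and *Cst7* were too low to test. Among the 36 tested, 7 genes (*Itgal*, *Siglec1*, *Ms4a7*, *Clec12a*, *Sall1*, *Fcer1g* and *Ly86*) passed the filter only through the Cre-Tat pools. Of the 15 calls 3 are among them, *Siglec1*, *Clec12a* and *Fcer1g*. Apart from these, the calls of border-associated macrophages come down to *Mrc1*, and no Fc receptor gene was called.

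*Ptprc* was at 4.52 and 3.97 CPM in the vehicle 4V pools and at 13.7 and 12.1 with Cre-Tat (1.60 ± 0.21, edgeR adjusted p = 7.1e-05), and *Adgre1* at 3.48 and 3.97 against 11 and 6.15 (1.21 ± 0.28, edgeR adjusted p = 0.0097). *Laptm5* was at 1.70 and 2.03 against 4.51 and 4.33 CPM (1.25 ± 0.31, edgeR adjusted p = 0.012). *Csf1r* was at 11.4 and 12.5 against 23.1 and 16.7 CPM (0.75 ± 0.19, edgeR adjusted p = 0.016). In these 4 genes the groups did not overlap, and as a ratio the Cre-Tat pools differed from each other most in *Adgre1*. *Aif1* was at 0.963 and 1.20 against 2.39 and 2.72 CPM (1.25 ± 0.39, edgeR adjusted p = 0.047), a call that was lost whichever pool was left out. *Cx3cr1* was at 5.41 and 3.32 against 6.19 and 5.54 (0.41 ± 0.27), and with *Cd68* (0.88 ± 0.33) and the integrin *Itgal* (2.04 ± 0.72) it completed the 8 genes without passing.

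Among genes of border-associated macrophages, *Mrc1* was at 11.3 and 10.7 CPM in vehicle and 22.7 and 16.5 with Cre-Tat (0.84 ± 0.19, edgeR adjusted p = 0.0078). *Siglec1* was at 0.519 and 0.554 against 2.06 and 1.81 CPM (1.84 ± 0.48, edgeR adjusted p = 0.017), from 7 and 6 counts against 38 and 36. *Clec12a* was at 0.741 and 0.0923 against 3.53 and 1.91 CPM (2.59 ± 0.57, edgeR adjusted p = 0.0063), from 10 and 1 counts against 65 and 38. These last pairs of counts are small, and the vehicle pools of *Clec12a* differed from each other by more than the Cre-Tat pools did on a ratio scale. *Cd163*, in contrast to *Mrc1*, was at 3.56 and 2.95 against 4.02 and 2.82 CPM (0.06 ± 0.30), with overlapping groups, and *Folr2*, *Stab1* and *Ms4a7* gave -0.23, 0.70 and 1.12 without passing. *Lyve1* was at 0.296 and 0.646 against 0.326 and 0.302 CPM, from 4 to 7 counts in each pool.

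The microglial genes did not pass in 4V ChP either. *Tmem119* was at 3.78 and 5.45 CPM in vehicle and 4.45 and 4.23 with Cre-Tat (-0.07 ± 0.27), and *P2ry12* at 1.70 and 1.38 against 1.47 and 1.01 (-0.33 ± 0.43), with overlapping groups in both. *Sall1* was at 0.445 and 0.0923 against 0.869 and 0.705 CPM (1.44 ± 0.69), from 6 and 1 counts against 16 and 14, and did not overlap. The 3 genes summed to 5.93 and 6.92 CPM in vehicle and 6.79 and 5.94 with Cre-Tat, whereas the 9 genes of border-associated macrophages summed to 27.9 and 27.4 against 51.0 and 37.6. With these errors, a difference of the size seen in *Mrc1* could go undetected in *P2ry12* and *Sall1*, and *Tmem119* has the smallest standard error of the 3.

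*Clec7a*, whose product Dectin-1 binds beta-glucans, was the called gene of the activated state, at 1.33 and 1.02 CPM against 4.51 and 2.77 (1.61 ± 0.38, edgeR adjusted p = 0.01). *Trem2* (1.41 and 0.923 against 2.71 and 1.76 CPM, 0.92 ± 0.42) and its adaptor *Tyrobp* (3.33 and 1.48 against 5.75 and 3.83, 0.96 ± 0.35) were higher in both Cre-Tat pools without passing. *Spp1* (8.0 and 7.75 against 6.95 and 6.15 CPM, -0.26), *Lgals3* (3.78 and 3.88 against 4.18 and 3.38 CPM, -0.02), *Gpnmb* (0.03) and *Axl* (0.15) were within 0.3 log2 units of no difference. The Fc receptor gamma chain, *Fcer1g*, rose from 0.296 and 0.369 to 1.95 and 1.61 CPM (2.41 ± 0.54, edgeR adjusted p = 0.0067), from 4 counts in each vehicle pool to 36 and 32. The receptors that use this chain, *Fcgr1* and *Fcgr3*, and the inhibitory *Fcgr2b* gave 0.65, 0.52 and 0.97, and none passed.

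With *Ptprc*, 4 effector genes had the lowest p-values in 4V ChP. *Mpeg1* was at 4.82 and 7.39 CPM against 20.3 and 15.5 (1.57 ± 0.22, edgeR adjusted p = 0.00013), and *Cybb* at 7.56 and 10.6 against 21.6 and 18.8 (1.17 ± 0.19, edgeR adjusted p = 0.00056). *Lyz2* was at 13.7 and 14.9 against 42.5 and 25.4 (1.25 ± 0.21, edgeR adjusted p = 0.00059), and *Ctss* at 26.5 and 25.4 against 65.3 and 38.5 (1.00 ± 0.19, edgeR adjusted p = 0.0024). *Cd86* was at 1.48 and 1.20 against 4.13 and 3.02 CPM (1.40 ± 0.36, edgeR adjusted p = 0.015). The toll-like receptor partners *Cd14* (0.34) and *Ly86* (0.80) did not pass. Over the 7 genes of this role the sum was 56.4 and 63.1 CPM in vehicle and 158 and 105 with Cre-Tat.

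Pool A labelled Cre-Tat of 4V was above pool B in 34 of the 39 genes. Without it, 8 of the 15 calls were kept (*Ptprc*, *Laptm5*, *Clec12a*, *Fcer1g*, *Ctss*, *Lyz2*, *Cybb* and *Mpeg1*) and 7 were lost, *Csf1r*, *Aif1*, *Adgre1*, *Mrc1*, *Siglec1*, *Clec7a* and *Cd86*. *Ptprc*, *Clec12a*, *Ctss*, *Lyz2*, *Cybb* and *Mpeg1* kept their call in 4V ChP whichever pool was left out. *Aif1*, *Siglec1* and *Cd86* were not called by DESeq2, *Aif1* also not with a mean count above 10, *Siglec1* not in 1 fit of all pools of the run and *Cd86* not with sums over transcripts. With the files as attached to the samples, 5 of the 15 kept their call, and *Lyz2* and *Mpeg1* turned negative (-0.19 and -0.15).

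**Figure D2:**
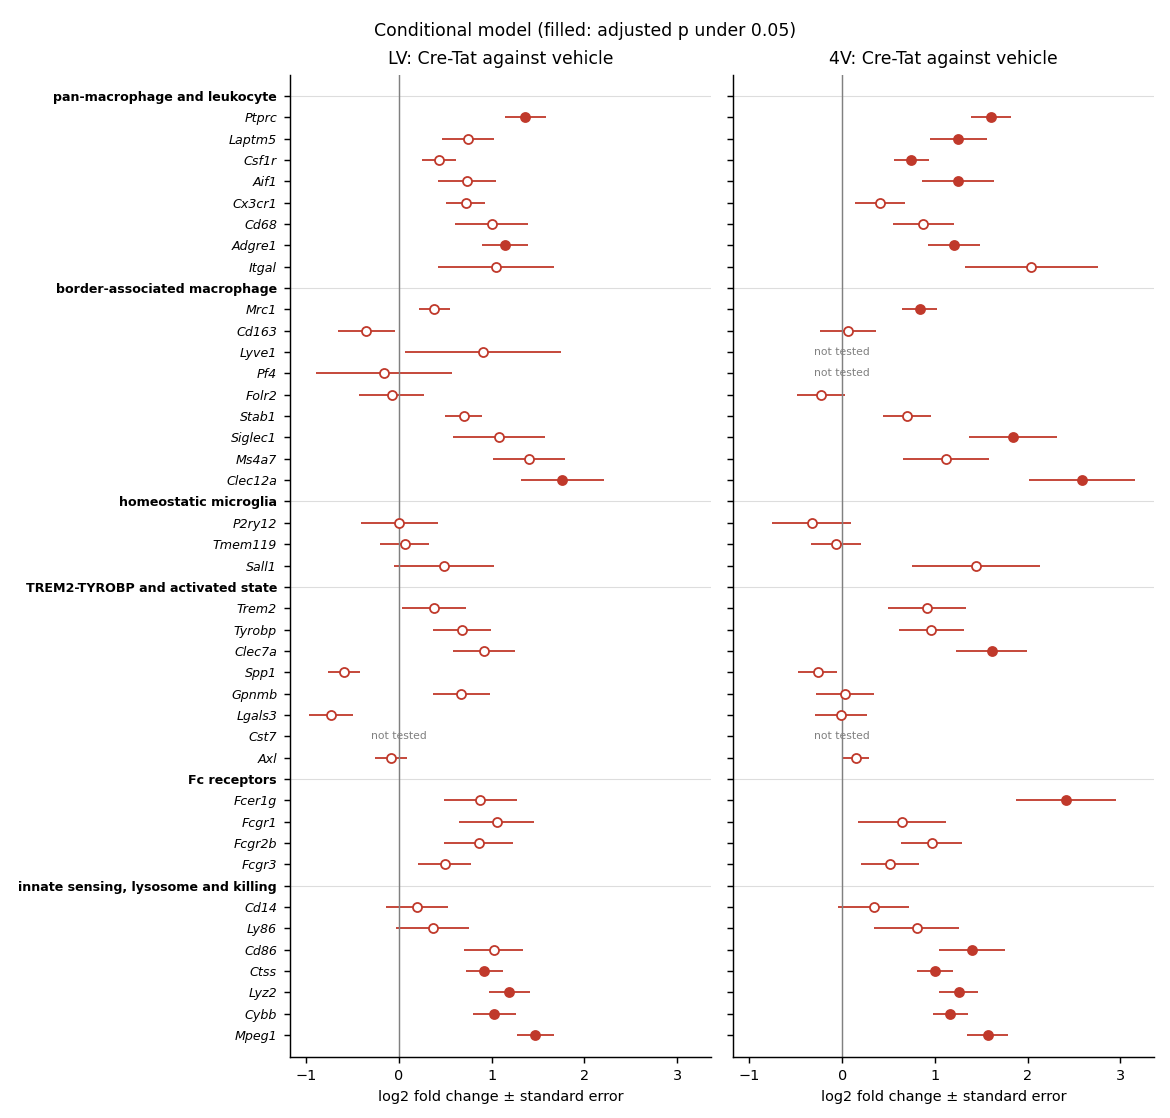
Log2 fold change of the 39 marker genes in the pools labelled Cre-Tat against vehicle, in LV ChP (left) and 4V ChP (right), grouped by role. Bars are standard errors from edgeR and filled points have an adjusted p under 0.05: 7 genes in LV and 15 in 4V, all to the right of 0, with *Tmem119* and *Axl* near 0 in both.

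Pools did not overlap between Cre-Tat and vehicle in 28 genes above and 3 below of 39 in LV ChP, where 21.9% of all genes tested lay wholly above and 20.6% wholly below. In 4V ChP it was 27 above and 2 below, against 25.1% and 25.3% over the whole table. With 2 pools on each side, an exact permutation test of one gene cannot give a two-sided p under 0.333. The difference between the ventricles was itself tested. None of 38 genes passed for the interaction of treatment and ventricle in edgeR, nor in DESeq2, 1 was past an unadjusted p of 0.05 in edgeR (*Fcer1g*, 1.53 ± 0.64, larger in 4V), and over all genes 0.00642% were called and 2.67% were past the unadjusted p. The larger number of calls in 4V ChP is therefore not a tested difference between the ventricles. The study describes separate dissection of LV and 4V ChP from the injected mice, so both tissues probably came from the same mice. The test treated their pools as independent.

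Genes of the same pathways that are not among the 39 were read from the same fits. Of 97 tested in LV ChP 16 were higher and none lower, beside 2.21% of all genes called higher and 1.03% lower. Of 93 tested in 4V ChP 24 were higher and 6 lower, beside 5.70% of all genes higher and 4.98% lower. These lists were also chosen with earlier results of these data known, so their counts are a description and not an independent test. Antigen presentation by MHC class II was the most complete group, with 6 of 7 genes higher in LV ChP and 5 of 7 in 4V ChP. Its beta chain *H2-Eb1* was at 34.2 and 46.4 CPM in vehicle and 112 and 96.3 with Cre-Tat in LV (1.37 ± 0.18, edgeR adjusted p = 0.00078) and at 28.5 and 32.8 against 83.4 and 58.0 in 4V (1.21 ± 0.17). The invariant chain *Cd74* was at 36.2 and 57.3 against 132 and 101 CPM in LV and at 29.5 and 33.3 against 88.4 and 59.3 in 4V. *Ciita*, the factor that switches these genes on, also passed in both ventricles (1.69 ± 0.39 and 2.01 ± 0.43). In 4V it passed the low-count filter only through the Cre-Tat pools (6 and 16 counts in vehicle against 66 and 76).

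Among receptors of phagocytosis and complement, 4 of 12 tested genes were higher in LV ChP and 5 of 11 in 4V ChP. The C1q chains *C1qa* (1.06 ± 0.18 in LV and 0.84 ± 0.21 in 4V) and *C1qb* (0.94 ± 0.19 and 0.82 ± 0.22), the anaphylatoxin receptor *C3ar1* (1.32 ± 0.30 and 1.44 ± 0.32) and the integrin *Itgb2* (1.5 ± 0.36 and 1.54 ± 0.41) passed in both, and protein S, *Pros1*, in 4V. Of 13 signalling genes downstream of ITAM adaptors, *Vav1* and *Lcp2* passed in LV and *Plcg2*, *Inpp5d* and *Vav1* in 4V. Of the growth and transcription factors, 1 of 19 passed in LV, *Ikzf1* (1.47 ± 0.35), and 2 of 18 in 4V, *Ikzf1* (1.62 ± 0.39) and *Id2* (0.90 ± 0.16). The growth factor genes *Csf1* (12.4 and 12.5 CPM in vehicle LV, 14.7 and 13.6 with Cre-Tat) and *Il34* (2.87 and 2.84 against 1.77 and 3.21) were not called, nor was *Spi1*, which encodes PU.1, at 0.143 and 0.348 against 1.45 and 0.780 CPM in LV and 0.667 and 0.185 against 0.977 and 0.907 in 4V.

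Further markers of macrophages and microglia were higher in 3 of 32 tested cases in LV, *Cd84*, *Cd52* and *Ms4a6c*, and in 9 of 30 in 4V, with *Arhgap30* (1.8 ± 0.34), *Il10ra* (1.61 ± 0.35), *Ms4a6c* (1.19 ± 0.32) and *Siglech* (1.23 ± 0.33) at the lowest p. In LV, *Cd84* passed the low-count filter only through the Cre-Tat pools (3 and 7 counts in vehicle against 50 and 27). Of the lysosomal genes none of 14 passed in LV, and in 4V 6 of 14 were lower and none higher, led by the cholesterol carrier *Npc2* (-0.74 ± 0.14), the proteases *Ctsc* (-0.69 ± 0.14), *Ctsl* (-0.59 ± 0.14) and *Ctsd* (-0.66 ± 0.17). These genes are expressed by epithelium as well, and in vehicle 4V pools the list summed to 8442 and 6371 CPM, against 26.5 and 25.4 for *Ctss*. The lipid carrier *Apoe*, which is on the list, had the most counts of it in those pools (57490 and 31122).

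Markers of other cells moved in the same pools. Epithelial markers summed to 219546 and 228242 CPM in vehicle LV pools and 122605 and 163474 with Cre-Tat, and to 216064 and 182216 against 97930 and 86185 in 4V. Of these genes 3 of 8 were called lower in LV and 7 of 8 in 4V, with 1 higher in each. The sum is dominated by *Ttr*, which the study describes as a direct target of OTX2. In vehicle LV pools *Ttr* had 3719280 and 3728010 counts, against 751830 and 726303 for *Enpp2*. The list also includes the targeted gene *Otx2*, whose whole-transcript count was higher with Cre-Tat. Fewer epithelial cells and less *Ttr* RNA in each cell were not tested apart. The T and NK cell list summed to 2.63 and 2.98 CPM in vehicle and 12.2 and 7.84 with Cre-Tat in LV (2 of 4 tested genes higher, *Cd3g* and *Cd6*), and to 2.22 and 2.58 against 7.44 and 4.74 in 4V (0 of 3). Both called genes passed the low-count filter through the Cre-Tat pools alone. *Cd3g* had 5 and 3 counts in vehicle LV against 60 and 31, and *Cd6* 0 and 0 against 18 and 11. The B and plasma cell list was at 12.7 and 15 against 70.9 and 15.1 CPM in LV, mostly *Jchain* in pool A, and at 8.52 and 7.57 against 25.6 and 10.2 in 4V. Neutrophil markers summed to 21.6 CPM in 4V pool A labelled Cre-Tat and 2.02 in pool B, against 0.519 and 0.739 in vehicle, the high pool being the one with the higher marker gene sum of the 4V pools. They were at most 1.29 CPM in LV. *Csf3r*, the one gene of that list that could be tested in 4V, was called higher (2.50 ± 0.70, edgeR adjusted p = 0.027). It passed the filter there through the Cre-Tat pools alone, with 2 and 2 counts in vehicle against 19 and 18. The defining genes *Ly6g* of neutrophils and *Ly6c2* of monocytes were at 0 in every pool. The monocyte receptor *Ccr2* was higher in both ventricles (2.63 and 2.44 against 8.11 and 4.27 CPM in LV, 1.11 and 0.554 against 9.61 and 6.45 in 4V), and the dendritic cell genes *Cd209a* and *Flt3* were called in 4V. In 4V these genes too passed the filter only through the Cre-Tat pools. *Cd209a* had 2 and 0 counts in vehicle 4V against 33 and 22, and *Flt3* 1 and 3 against 27 and 23. For genes that pass in this way the filter favours a call of higher. The monocyte list as a sum is dominated by *Ace*, and was 727 and 825 against 619 and 788 CPM in LV and 700 and 691 against 614 and 872 in 4V, while the dendritic cell list was 8.50 and 8.21 against 13.7 and 9.50 in LV and 6.30 and 5.91 against 10.3 and 9.92 in 4V. Mast cell genes were at most 0.326 CPM in the conditional model, erythroid genes reached 9.13 CPM in LV pool B labelled Cre-Tat, and the means of the endothelial and fibroblast lists were 0.95 to 1.11 times those of vehicle with overlapping pools. Fibroblast genes moved in opposite directions within that sum, *Col1a2* from 39.5 and 46.0 to 119 and 147 CPM in LV and from 39.4 and 51.0 to 131 and 136 in 4V, and *Pdgfra* from 232 and 254 to 130 and 135 in LV and from 216 and 228 to 89.0 and 87.6 in 4V, all 4 called by edgeR. Genes of neurons and glia summed to 149 and 126 CPM in vehicle 4V pools and 101 and 105 with Cre-Tat. Several of the 39 genes, *Ptprc*, *Itgal*, *Laptm5*, *Fcer1g* and *Lyz2* among them, are also expressed by these other leukocytes, and the part of other cells in the marker gene result was not tested.

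**Figure D3:**
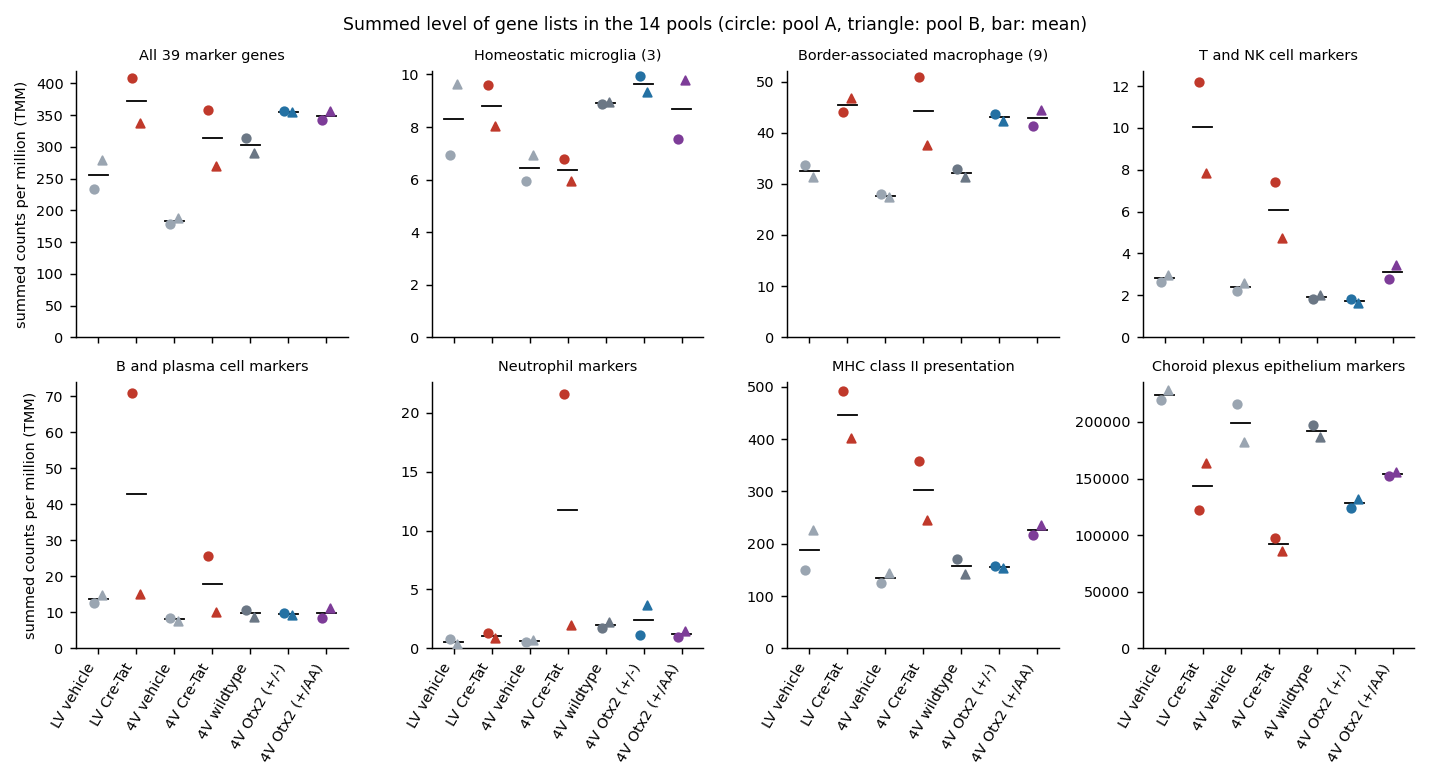
Summed level of 8 gene lists in each of the 14 pools, in CPM with TMM factors, from 0, by group. Circles are pool A, triangles pool B and bars the mean: the 39 genes, the border-associated list and MHC class II are higher in pools labelled Cre-Tat than in vehicle of the same ventricle, the microglial list overlaps, the epithelial list, dominated by *Ttr*, is lower, and single Cre-Tat pools stand apart in the neutrophil and B and plasma cell lists.

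In the constitutive model, 2 of 35 marker genes tested differed between *Otx2* (+/-) and wildtype 4V ChP, *Mrc1* higher and *Lgals3* lower (2.86% of those tested in each direction, against 1.78% of all 14573 genes higher and 1.75% lower). *Lgals3* was at 8.72 and 8.10 CPM in wildtype and 2.63 and 2.72 in *Otx2* (+/-), a log2 fold change of -1.65 ± 0.20 (edgeR adjusted p = 0.0036), and this call held in all 12 settings, each pool left out included. The pools of each group lay close together and far from those of the other. *Mrc1* was at 14.7 and 14.3 CPM against 23.0 and 22.2 (0.64 ± 0.14, edgeR adjusted p = 0.042), and its call was lost whichever pool was left out. The median log2 fold change was 0.23 over the marker genes tested and 0.00 over all genes. *Itgal*, *Lyve1*, *Sall1* and *Cst7* were too low to test, both here and for *Otx2* (+/AA), and *Folr2* passed the filter only through the mutant pools in each comparison.

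*Ptprc* was at 6.42 and 7.88 CPM in wildtype and 9.29 and 8.79 in *Otx2* (+/-) (0.34 ± 0.18), and *Adgre1* at 7.10 and 5.51 against 8.53 and 8.01 (0.39 ± 0.19). *Mpeg1* was at 10.3 and 10.2 against 13.6 and 16.1 CPM (0.54 ± 0.16, edgeR adjusted p = 0.12), and *Cybb* at 9.29 and 12.9 against 14.2 and 14.5 (0.38 ± 0.19). Both mutant pools lay above both wildtype pools in these 4 genes, and none passed the test. *Ctss* was at 61.5 and 48.9 against 69.1 and 60.8 CPM and *Lyz2* at 25.4 and 23.5 against 25.2 and 29.5, with overlapping groups. *Spp1*, at 31.1 and 12.7 against 41.7 and 23.8 CPM (0.58 ± 0.38), *Csf1r* (0.11 ± 0.15), *Aif1* (-0.04 ± 0.29), *Cx3cr1* (0.41 ± 0.28), *Tmem119* (-0.03 ± 0.18), *P2ry12* (0.68 ± 0.32) and *Cd163* (0.44 ± 0.59) did not pass. Over all 39, 13 lay wholly above and 3 wholly below wildtype, against 23.7% and 25.5% of all genes tested.

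Beside 1.78% of all genes called higher and 1.75% lower, none of the pathway genes was called higher in *Otx2* (+/-), and 5 of 95 were lower. Of these, 4 are on the lysosomal list: *Npc2* (-0.86 ± 0.12), the lipid carrier *Apoe* (-0.94 ± 0.15), *Ctsd* (-0.76 ± 0.13) and *Ctsl* (-0.52 ± 0.11). MHC class II genes summed to 172 and 142 CPM in wildtype and 158 and 154 in *Otx2* (+/-), T and NK cell genes to 1.83 and 2.03 against 1.82 and 1.64, and epithelial markers to 197277 and 186753 against 124043 and 131992. The epithelial sum is again dominated by *Ttr*, with 2831700 and 2472960 counts in wildtype and 1513740 and 1749700 in *Otx2* (+/-). The fibroblast and mural list summed to 1264 and 1200 CPM against 1597 and 1454, with *Col1a2* and *Col3a1* called higher, and *Ccr2* was at 2.35 and 3.32 against 4.64 and 8.01 without passing. The part of these other cells in the marker gene values was not tested.

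For *Otx2* (+/AA) against the same wildtype pools, none of 35 marker genes passed (0.345% of all 14494 genes were called), by edgeR or by DESeq2, and at an unadjusted p under 0.05 edgeR gave 10 higher and 1 lower, beside 8.91% of all genes in either direction. The median log2 fold change was 0.28 over the marker genes tested and -0.01 over all genes. The largest difference was in *Spp1*, at 31.1 and 12.7 CPM in wildtype and 3.0 and 9.34 in *Otx2* (+/AA) (-1.85 ± 0.43, edgeR adjusted p = 0.1), where pools of a group differed widely. Leaving out a wildtype pool brought 2 genes past the threshold, *Adgre1* and *Spp1* without pool A and *Clec12a* and *Spp1* without pool B, and leaving out *Otx2* (+/AA) pool B brought *Spp1* alone. *Adgre1* was at 7.10 and 5.51 CPM against 12 and 9.86 (0.78 ± 0.21), *Mpeg1* at 10.3 and 10.2 against 14.7 and 16.2 (0.58 ± 0.17), *Lyz2* at 25.4 and 23.5 against 37.2 and 32.8 (0.51 ± 0.14) and *Mrc1* at 14.7 and 14.3 against 20.2 and 20.5 (0.48 ± 0.16). In all 4 the groups did not overlap. *Ptprc* was at 11.1 and 7.88 CPM in *Otx2* (+/AA), *Cybb* at 17.1 and 13.9 and *Ctss* at 67.0 and 57.5, of which *Cybb* alone did not overlap wildtype. *Lgals3*, low in *Otx2* (+/-), was at 5.44 and 11 CPM here (-0.05 ± 0.27). Over all 39, 17 lay wholly above and 3 wholly below, against 19.7% and 18.4% of all genes tested. Of 93 pathway genes tested, *H2-Eb1* of MHC class II was called higher (28.5 and 21.8 CPM in wildtype, 48.0 and 42.4 in *Otx2* (+/AA), 0.84, edgeR adjusted p = 0.043) and none lower. Epithelial markers summed to 152641 and 156166 CPM and no marker of other cell types was called. Both constitutive comparisons share the wildtype pools, so their values are not independent of each other.

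The remaining defining and called genes are given for the 3 constitutive groups together, since none of them passed in either comparison. *Csf1r* was at 17.9 and 21.3 CPM in wildtype, 20.7 and 21.6 in *Otx2* (+/-) and 20.1 and 25.4 in *Otx2* (+/AA). *Aif1* was at 3.50 and 2.59 CPM in wildtype, 2.52 and 3.39 in *Otx2* (+/-) and 4.41 and 5.32 in *Otx2* (+/AA). *Cx3cr1* was at 7.47 and 11.3 CPM in wildtype, 9.24 and 15.6 in *Otx2* (+/-) and 12.8 and 13.4 in *Otx2* (+/AA). In *Aif1* and *Cx3cr1* the *Otx2* (+/AA) pools lay above both wildtype pools and the *Otx2* (+/-) pools overlapped them. *Laptm5* was at 5.90 and 5.51 CPM in wildtype, 6.31 and 7.04 in *Otx2* (+/-) and 6.80 and 7.98 in *Otx2* (+/AA). *Tmem119* was at 7.41 and 7.03 CPM in wildtype, 7.62 and 6.52 in *Otx2* (+/-) and 5.72 and 8.08 in *Otx2* (+/AA). *P2ry12* was at 1.31 and 1.52 CPM in wildtype, 2.07 and 2.47 in *Otx2* (+/-) and 1.78 and 1.67 in *Otx2* (+/AA). The wildtype pools were the lowest for *Laptm5* and *P2ry12*, while *Tmem119* overlapped in all groups. *Cd163* was at 2.04 and 0.956 CPM in wildtype, 3.18 and 0.873 in *Otx2* (+/-) and 1.36 and 1.15 in *Otx2* (+/AA). *Siglec1* was at 0.887 and 2.25 CPM in wildtype, 2.52 and 2.57 in *Otx2* (+/-) and 1.5 and 2.29 in *Otx2* (+/AA). *Clec12a* was at 0.783 and 1.58 CPM in wildtype, 0.555 and 2.36 in *Otx2* (+/-) and 2.30 and 3.65 in *Otx2* (+/AA). *Clec12a* stood above wildtype in both *Otx2* (+/AA) pools, and its *Otx2* (+/-) pools fell on either side of wildtype. *Clec7a* was at 2.56 and 4.11 CPM in wildtype, 3.03 and 5.29 in *Otx2* (+/-) and 5.34 and 4.90 in *Otx2* (+/AA). *Fcer1g* was at 2.14 and 1.86 CPM in wildtype, 2.22 and 1.85 in *Otx2* (+/-) and 2.58 and 2.97 in *Otx2* (+/AA). *Cd86* was at 1.83 and 1.52 CPM in wildtype, 2.32 and 2.67 in *Otx2* (+/-) and 2.53 and 1.93 in *Otx2* (+/AA). For *Fcer1g* the *Otx2* (+/-) pools overlapped wildtype, where the pools labelled Cre-Tat had not overlapped vehicle. *Sall1* was at 0.157 and 0.394 CPM in wildtype, 0.252 and 0.360 in *Otx2* (+/-) and 0.0469 and 0.0522 in *Otx2* (+/AA). *Lyve1* was at 0.157 and 0.281 CPM in wildtype, 0.404 and 0.360 in *Otx2* (+/-) and 0.281 and 0.156 in *Otx2* (+/AA).

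**Figure D4:**
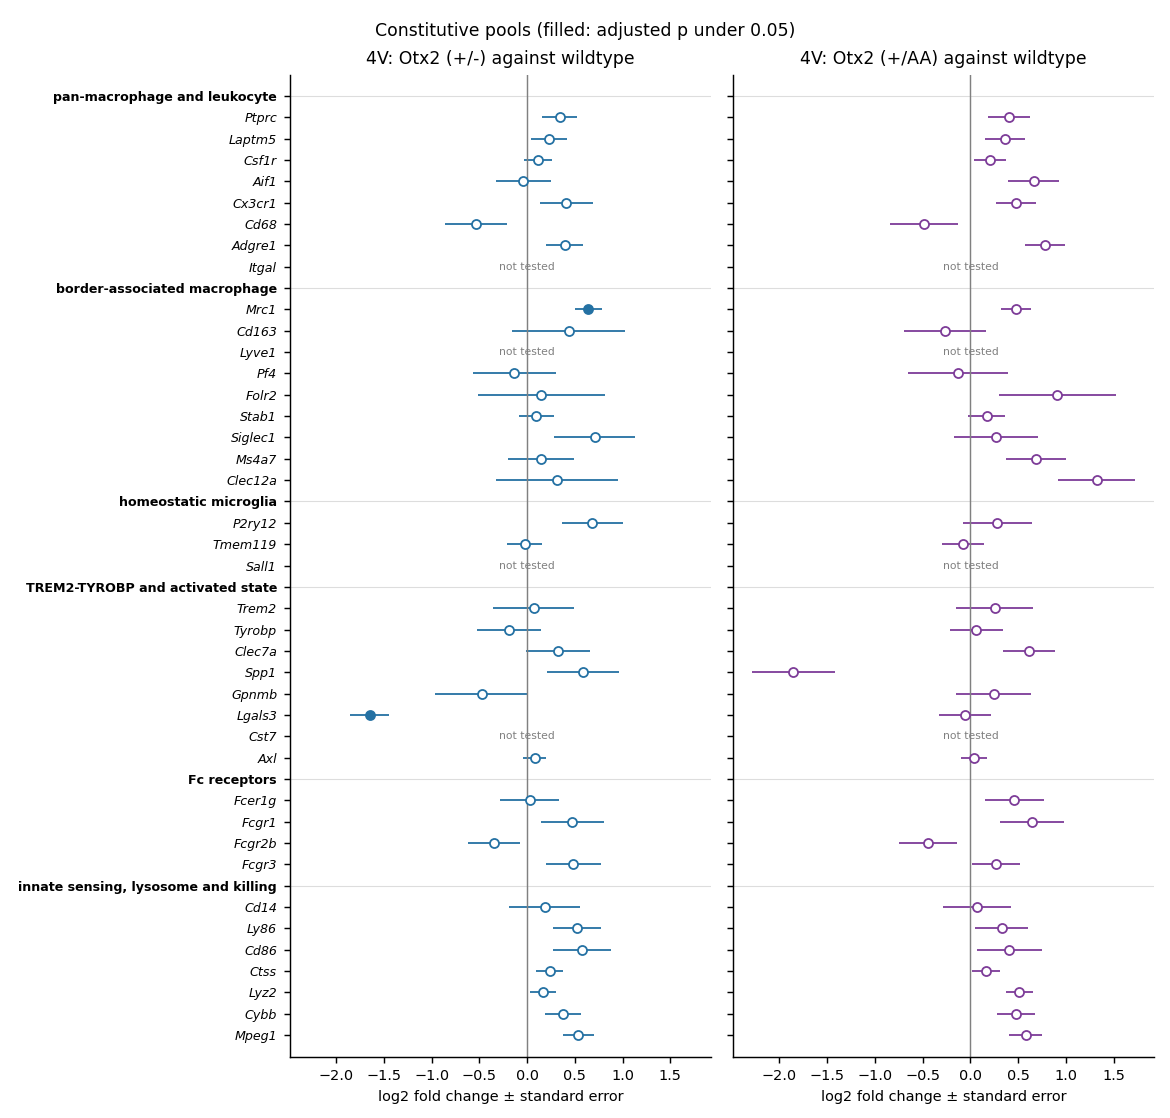
Log2 fold change of the 39 marker genes in *Otx2* (+/-) (left) and *Otx2* (+/AA) (right) against the same wildtype 4V pools, grouped by role. Bars are standard errors from edgeR; the filled points are *Lgals3* (-1.65) and *Mrc1* (0.64) in *Otx2* (+/-), and no point is filled in *Otx2* (+/AA).

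Whether the 4V difference in the conditional model exceeded that in *Otx2* (+/-) was tested over their 8 pools. Of 37 marker genes 2 passed (5.41%, against 0.783% of all 15327 genes with the larger value, 0.861% with the smaller and 1.64% in either direction), *Ptprc*, with an extra log2 fold change of 1.25 ± 0.27 with Cre-Tat (edgeR adjusted p = 0.037), and *Lgals3*, with 1.62 ± 0.32 (edgeR adjusted p = 0.022). *Ptprc* had risen by 1.60 in the conditional model and gave 0.34 in *Otx2* (+/-), while *Lgals3* gave -0.02 and -1.65. These calls rest on few pools: the call of *Ptprc* was lost in 7 of the 8 fits that left out 1 pool and that of *Lgals3* in 6, and with the files as attached *Ptprc* gave -0.30. At an unadjusted p under 0.05, 14 genes had the larger value with Cre-Tat and none the smaller, beside 13% of all genes in either direction, and the next lowest p was that of *Fcer1g* (2.37 ± 0.57, edgeR adjusted p = 0.063). For *Mrc1* the difference was 0.18 ± 0.24. Of the pathway genes, *Cd74*, *H2-Aa*, *H2-Ab1* and *C1qa* passed this test.

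Without Cre-Tat, 4 of 35 marker genes were higher in LV than in 4V ChP and none lower (11.4% of those tested, against 3.46% of all 14561 genes called higher, 3.98% lower and 7.44% in either direction). *Spp1* was at 25.7 and 26.7 CPM in vehicle LV pools and 8.00 and 7.75 in vehicle 4V pools (1.73 ± 0.16, edgeR adjusted p = 2.6e-05), and the pools of a ventricle lay close together. *Lgals3* was at 7.36 and 8.11 against 3.78 and 3.88 CPM (1.01 ± 0.23, edgeR adjusted p = 0.018). *Csf1r* was at 16.0 and 22.1 against 11.4 and 12.5 (0.67 ± 0.18, edgeR adjusted p = 0.038), and *Ctss* at 33.7 and 41.5 against 26.5 and 25.4 (0.53 ± 0.14, edgeR adjusted p = 0.035). In all 4 genes the groups did not overlap, but among them only the call of *Spp1* held whichever pool was left out: 1 gene was called without either vehicle 4V pool, 2 without vehicle LV pool B, and 8 without vehicle LV pool A. *Csf1r* and *Ctss* also lost their call with library totals, by DESeq2, with sums over transcripts and in 1 fit of all pools of the run, and *Lgals3* by DESeq2. With the files as attached, *Spp1* and *Lgals3* lost their call. The median was 0.45 over the marker genes tested, 21 of 39 lay wholly above and 1 below, against 26.9% and 26.8% of all genes tested. *P2ry12* (0.74 ± 0.37), *Mrc1* (0.54 ± 0.16, edgeR adjusted p = 0.059) and *Tmem119* (0.07 ± 0.28) did not pass, and *Itgal*, *Lyve1*, *Pf4* and *Cst7* were not tested. *Siglec1*, *Clec12a*, *Sall1* and *Fcer1g* passed the filter through the LV pools alone. These vehicle pools are the same ones against which Cre-Tat was compared. LV and 4V tissue probably came from the same mice, and the test treated their pools as independent. Endothelial markers were also higher in LV (207 and 231 against 138 and 148 CPM, with *Plvap*, *Tek* and *Pecam1* called), as were the fibroblast and mural list (804 and 863 against 686 and 727, with *Dcn* called), MHC class II genes (150 and 226 against 125 and 145), B and plasma cell genes (12.7 and 15 against 8.52 and 7.57) and *Ccr2* (2.63 and 2.44 against 1.11 and 0.554, called). The part of these in the marker gene values was not tested. Of 85 pathway genes tested 7 were higher in LV, led by the receptor *Mertk* (0.95 ± 0.14) and its bridging ligand *Pros1* (0.98 ± 0.14), and none lower.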

How the data were processed

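The authors deposited 22 files of counts, whole numbers of 50-base reads on each Ensembl transcript, without normalization. Per the labels they used bcl2fastq 1.8.4, Bowtie 0.12.9, SAMtools, HTSeq 0.5.3 and DESeq 1.8.3 on mm10. The labels describe depletion of ribosomal RNA and the study's methods PolyA+ selection, and whether counting used strand is not given in the sources used here. Pools of the conditional model were sequenced in 2 runs, which were summed. GENCODE vM21 (GRCm38) named 82807 of the 95533 transcripts, with 89.5% of the counts. For each of 33984 genes the transcript with the highest total count was kept, because adding up transcripts could enter one read repeatedly. The plan assumed counts per gene.

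Tests used edgeR 4.0.16 (R 4.3.3; filterByExpr, TMM factors, quasi-likelihood test, Benjamini-Hochberg adjustment over all genes tested, threshold 0.05), in the groups of each comparison alone and in 8 pools for the interactions. Replicates are pools of different mice, 2 per group, and p-values measure the spread between pools. File totals were 11253762 to 43790479 counts, and the Cre-Tat comparisons had a biological coefficient of variation of 0.152 (LV) and 0.117 (4V). Counting error is the lower bound of the error, and the number of pools limits the precision. Alternatives were DESeq2 1.42.0, its size factors, library totals, a block for the pool letter, the filter removed or replaced by a mean count over 10, 1 fit of a model, sums over transcripts, files as attached and each pool left out. No source ties pools of the same letter to shared mice or days, so the letter is not part of the tests reported. Python 3.11.15, matplotlib 3.10.9, NumPy 2.4.6 and pandas 2.3.3 served for tables and figures.

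All 39 marker genes are accounted for. Those past the threshold in any comparison, and 10 defining markers, have every pool's value; the others are given by range or count. The members, the pathway lists and the lists of other cells were chosen with earlier results of these data known.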

Additional observations from a re-analysis of the deposited data

Results flagged for a closer look

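For *Ptprc* the difference between the pools labelled Cre-Tat and vehicle in 4V ChP exceeded that between *Otx2* (+/-) and wildtype by 1.25 on the log2 scale (SE 0.27, edgeR adjusted p = 0.037), a difference between the models that passed its own test. For *Lgals3* the same test gave 1.62 (SE 0.32, edgeR adjusted p = 0.022), a value that comes from the fall in *Otx2* (+/-). Its mean was 3.83 CPM in vehicle and 3.78 with Cre-Tat, and 8.41 in wildtype and 2.67 in *Otx2* (+/-). Strain and sequencing run differ between the models and cannot be told apart from the allele, and the first call was lost in 7 and the second in 6 of the 8 fits that left out 1 pool.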

How the results depend on the processing

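In LV ChP with Cre-Tat, 7 genes were called, 15 with the files as attached and 3 to 9 with a pool left out. In 4V ChP, 15 were called, 12 by DESeq2, 21 with library totals, 19 without the filter, 17 (15 higher, 2 lower) with the files as attached and 8 to 17 with a pool left out. For *Otx2* (+/-), 2 were called, 1 without the filter, 1 with sums over transcripts and 1 to 2 with a pool left out. For *Otx2* (+/AA), 0 were called, 3 without the filter and 0 to 2 with a pool left out. Between the ventricles, 4 were called, 2 with library totals, 1 by DESeq2, 7 without the filter, 2 in 1 fit of the model, 8 with the files as attached and 1 to 8 with a pool left out. For the interaction of treatment and ventricle, 0 were called, 5 with the files as attached and 0 with any pool left out. For the interaction of label and model, 2 were called, 8 without the filter, 1 with sums over transcripts and 0 to 3 with a pool left out. In these fits a lone pool is assumed to vary like the pools of the other group. Over all genes the counts moved too. With the files as attached, 6709 of 14956 genes were called in LV, 8742 of 14858 in 4V and 4718 of 14454 between ventricles. The marker genes tested there numbered 37, 37 and 36. For treatment and ventricle 5258 of 15380 genes were called, with 38 marker genes tested. In each of these, the called share was lower among marker genes than over all genes. Library totals gave 1742 of 14550 genes in 4V and 1474 of 14561 between ventricles, and DESeq2 1149 and 782 of the same genes. Without the filter it was 1900 of 21709 in 4V and 1840 of 21337 between ventricles. It was 464 of 23025 for *Otx2* (+/-), 390 of 23345 for *Otx2* (+/AA) and 627 of 24482 for label and model. Sums over transcripts gave 395 of 15094 for *Otx2* (+/-) and 166 of 15954 for label and model. The causes were not tested.

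With the files as attached, log2 fold changes turned sign in LV for *Ms4a7* (-0.52), *Clec12a* (-0.26), *Lyz2* (-0.27), *Mpeg1* (-0.0635), *Fcgr2b* (-0.65), *Spp1* (1.48), *Lgals3* (0.47) and *Axl* (0.28). In 4V they did so for *P2ry12* (0.88), *Spp1* (1.74), *Lgals3* (0.90), *Lyz2* (-0.19) and *Mpeg1* (-0.15). Between ventricles it was *Ms4a7* (1.04) and *Lyz2* (0.49), for treatment and ventricle *Cybb* (-0.32), and for label and model *Ptprc* (-0.30) and *Mpeg1* (-0.70).

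Samples of 2 groups with the same letter showed correlations of their deviations of -0.155 in LV, 0.207 in 4V, 0.376 and 0.0878 in the constitutive model and 0.108 between ventricles. With the replicate letter as a block, the called genes numbered 8, 20, 4, 5 and 6 in that order, 0 for treatment and ventricle and 8 for label and model. Over all genes the block gave 622 of 15002, 3114 of 14550, 2539 of 14573, 549 of 14494 and 2288 of 14561 in the same order. It gave 2 of 15565 for treatment and ventricle and 1048 of 15327 for label and model. For *Otx2* (+/-) the called share was lower among the 35 marker genes tested than over all genes. Crossing the letters in LV, an alternative chosen after seeing the data, gave 12, beside 1012 of all 15002 genes. Library totals shifted the median of all genes by 0.17 in LV, 0.15 in 4V and -0.19 between ventricles.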
